A study of Mus musculus with 4 samples.

Results

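The IL-10 and TGF-β signaling genes followed here are 6 in number out of 33696 genes in the count matrices: the cytokine gene Il10, its receptor genes Il10ra and Il10rb, the cytokine gene Tgfb1, and its receptor genes Tgfbr1 and Tgfbr2. They were taken as a list by name, and no measured value enters the rule that defines it. The list was, however, chosen with earlier results of these data known. Live CD45+ leukocytes had been sorted from subcutaneous KPC tumors, which grow from a mouse pancreatic cancer line, in male C57BL/6NHsd hosts of 8 to 10 weeks. Untreated mice were compared with mice given ADU-S100, a STING agonist, into the tumor on the day treatment began, with mice given anti-LTβR, the agonistic antibody 4H8 to the receptor for lymphotoxin, 4 times intraperitoneally, and with mice given both (combination). In each group, 10 tumors were pooled on day 14 into 1 single-cell library. The paper describes more than 1 single-cell experiment, but only these 4 libraries were used here. No group therefore had a replicate here and no test between groups was possible. Every difference below compares 4 libraries, not 4 conditions.

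IL-10 is a cytokine that restrains macrophages and dendritic cells and can also act on B cells and plasma cells. It binds the ligand-binding chain encoded by Il10ra, which pairs with the chain encoded by Il10rb, and the pair signals through JAK1, TYK2 and STAT3. Il10rb is also part of the receptors for IL-22 and for type III interferons. TGF-β1 is secreted in a latent form and, once activated, binds the receptor encoded by Tgfbr2, which recruits and phosphorylates the kinase encoded by Tgfbr1, and the SMAD2 and SMAD3 proteins carry the signal to the nucleus. In tumors, macrophages, regulatory T cells and plasma cells are known sources of IL-10, and TGF-β restrains T cells and NK cells and promotes regulatory T cells.

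On the GRCm38 (mm10) build, Il10 lies on chromosome 1 from 131019845 to 131024974, Il10ra on chromosome 9 from 45253837 to 45269149, and Il10rb on chromosome 16 from 91406164 to 91425834. Tgfb1 lies on chromosome 7 from 25687002 to 25705077, Tgfbr1 on chromosome 4 from 47353222 to 47414931, and Tgfbr2 on chromosome 9 from 116084293 to 116175360. Over all deposited cells the genes held between 7706 (Il10) and 72001 (Tgfb1) unique molecular identifiers (UMIs, counted RNA molecules).

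After limits on genes, mitochondrial UMIs and likely doublets, 7374, 13224, 13022 and 14395 leukocytes were kept in the untreated library and in those of ADU-S100, anti-LTβR and the combination, the order used for every set of 4 values below. Median UMIs per kept cell ran from 2200 in the combination library to 4616 in the untreated library, so the combination cells were the shallowest. Cell classes were rebuilt from marker genes, none of which was one of the 6 genes, and the 6 genes and their pathway lists were left out of the clustering. Carcinoma-like cells, 150 to 272 per library, were left out, and between 8.76% and 11.8% of leukocytes stayed unnamed. All 16 macrophage and monocyte markers, all 10 plasma cell markers and all 8 regulatory T markers had UMIs in their class in every library. Neutrophils made up 40% of the ADU-S100 leukocytes and 6.67% to 8.96% elsewhere. Any 2 libraries shared 34 to 83 cell barcodes, at most 0.539% of a library.

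Levels are CPM: the UMIs of a gene summed over the cells of a class, as a share of all UMIs of those cells other than immunoglobulin UMIs, scaled to 1000000. Ranges in parentheses are 95% intervals that cover counting error only, not the spread between mice, tumors or libraries. A 1.5-fold difference between summed libraries, in genes with at least 200 UMIs over both, stands where a test would otherwise stand, and "rose" and "fell" are used only for it. Each gene is compared across classes and libraries, never with another gene, since 5′ UMI counts are not per length.

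Plasma cells and regulatory T cells held the highest Il10 levels in every library. In plasma cells the Il10 level was 137 CPM (108–171) in the untreated library, 503 CPM (443–569) with ADU-S100, 270 CPM (249–292) with anti-LTβR and 262 CPM (243–283) with the combination. In regulatory T cells it was 126 CPM (102–154), 101 CPM (62.5–154), 364 CPM (310–424) and 351 CPM (269–451). These classes stood first and second in each library, but their intervals overlapped in the untreated and combination libraries, so their order there is not set. Macrophages and monocytes held 15.9 to 54.5 CPM and other T cells 10.6 to 13.8 CPM, and the unnamed cells held 24.6, 79.5, 5.29 and 9.96 CPM. Neutrophils held 3.24 to 8.75 CPM and NK cells 0 to 4.73 CPM, and the untreated NK cells had no Il10 UMI in 411 cells, which allows a share of up to 0.73% of cells with a UMI (3 counts). The B cells, few in the untreated (6) and ADU-S100 (8) libraries, held 25 Il10 UMIs with anti-LTβR, where their 45.5 CPM (29.4–67.2) stood above the macrophage level, and 6 with the combination.

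**Figure D1:**
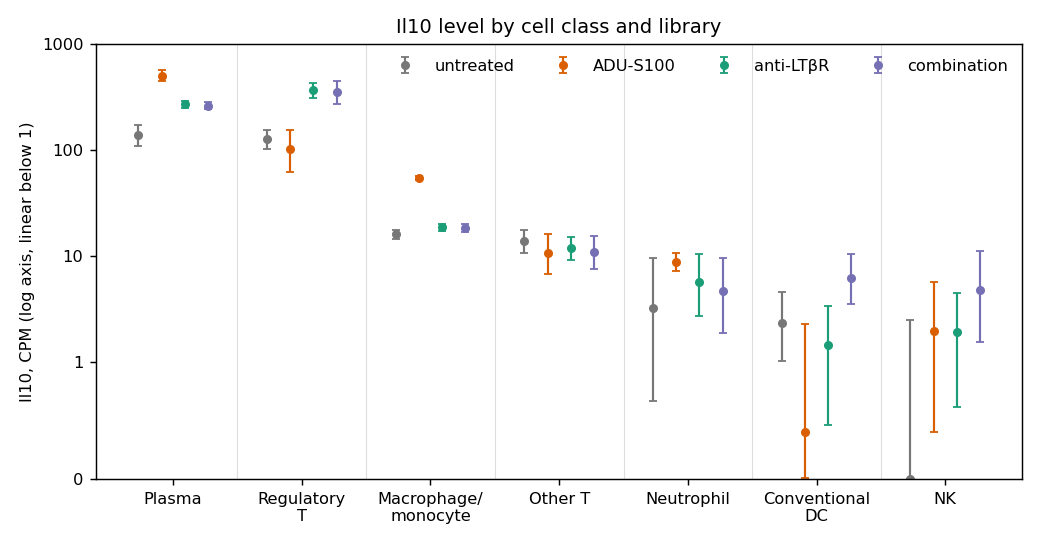
Il10 level (CPM, log axis that is linear below 1) in 7 cell classes and 4 libraries. Points are summed UMIs of 1 library and bars are exact Poisson 95% intervals. Plasma and regulatory T cells lie between 101 and 503 CPM in all 4 libraries, and the macrophage and monocyte point of the ADU-S100 library (54.5 CPM) stands above the other 3 (15.9 to 18.7 CPM).

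In macrophages and monocytes an Il10 UMI was found in few cells, and in plasma and regulatory T cells in more. After each cell was thinned to 1000 UMIs, which left out shallower cells (7, 2, 36 and 156 plasma cells, 13, 6, 31 and 26 regulatory T cells and 198, 269, 455 and 1000 macrophages and monocytes), an Il10 UMI was found in 16.5, 15, 10.6 and 11.4% of plasma cells, in 6.45, 9.09, 12.1 and 13% of regulatory T cells and in 1.1, 2.96, 1.15 and 1.16% of macrophages and monocytes. The share in NK cells, a class low in Il10, was at most 0.404%. Without thinning the plasma cell shares were 27.9, 48.4, 30.1 and 24.9%, at median depths of 3184, 14318, 9156 and 3217 UMIs per cell. Those of regulatory T cells were 11.7, 14.8, 17 and 13.7%, those of macrophages and monocytes 3.65, 7.76, 2.96 and 2.66%, and those of NK cells 0, 0.82, 0.613 and 0.865% at 3215, 3318, 2900 and 1462 UMIs per cell. A single cell held 4.63% to 19.7% of the plasma cell Il10 UMIs of a library, 17.9% to 39.3% of those of regulatory T cells and 34.3% to 60.9% of those of other T cells, so the levels in T cells rest on few cells.

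The cells that supplied Il10 transcripts differed between libraries. Macrophages and monocytes held 54.7% (51.1–58.3) of all leukocyte Il10 UMIs in the untreated library, 73.5% (71.9–75) with ADU-S100, 42.3% (39.9–44.8) with anti-LTβR and 35% (32.4–37.6) with the combination. Plasma cells held 10% (7.99–12.4), 8.43% (7.46–9.48), 38% (35.6–40.4) and 50.8% (48.1–53.6), although they made up only 1.41, 0.469, 3.04 and 5.72% of leukocytes. Regulatory T cells held 12.5, 0.697, 10.3 and 4.64%. The largest single source was therefore the macrophage and monocyte class in the untreated and ADU-S100 libraries and the plasma cell class in the combination library, while with anti-LTβR their intervals overlapped.

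**Figure D2:**
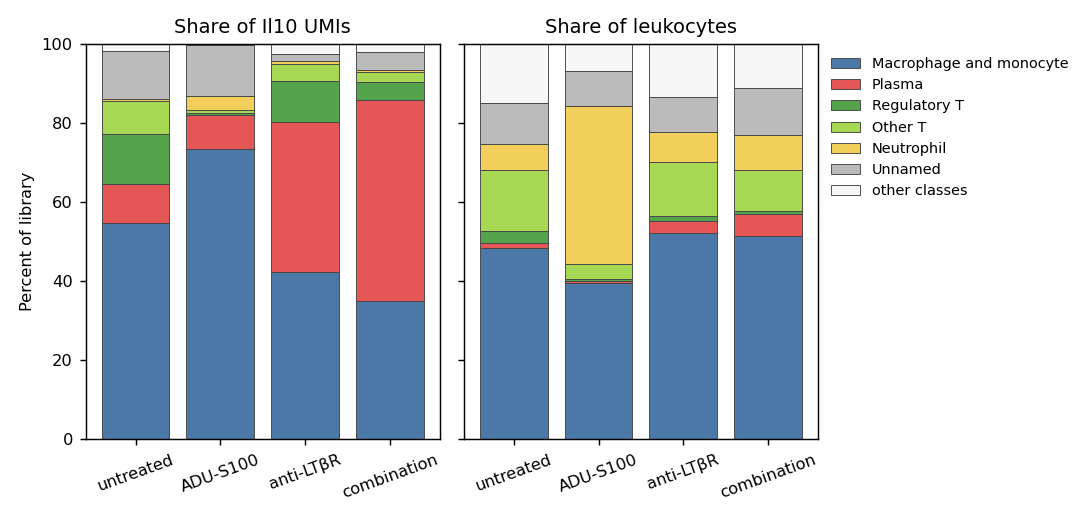
Share of each library's Il10 UMIs (left) and of its leukocytes (right) held by each cell class, in percent. Plasma cells hold 50.8% of Il10 UMIs in the combination library while forming 5.72% of its leukocytes, and macrophages and monocytes hold 73.5% of Il10 UMIs in the ADU-S100 library.

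Class shares and levels within classes can be separated by arithmetic. A class share is here the part of a library's leukocyte UMIs, without immunoglobulin UMIs, that the class holds, not its part of the cells. Depth per cell therefore enters the class shares. Levels within a class take in shifts among its subsets, and that part was not tested. With the class shares of the ADU-S100 library and the untreated levels, the Il10 level over all leukocytes would differ from untreated by −0.30 on the log2 scale, and with the untreated shares and the ADU-S100 levels by 1.5, beside 1.38 for both together. For anti-LTβR these values were 0.15, 0.40 and 0.59, and for the combination 0.37, 0.42 and 0.81. The ADU-S100 difference thus lay in levels within classes, whereas class shares and levels contributed by similar amounts in the combination library.

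In macrophages and monocytes, Il10 rose 3.43-fold with ADU-S100, from 15.9 CPM (14.4–17.5, 414 UMIs) to 54.5 CPM (52.2–56.8, 2213 UMIs), a log2 ratio of 1.78 (1.63–1.94). It was 18.7 CPM (17.3–20.1) with anti-LTβR and 18.3 CPM (16.7–20) with the combination, log2 ratios of 0.23 and 0.21. The combination library therefore stood 1.57 lower on the log2 scale than the ADU-S100 library in which the same agonist had been injected, with a log2 ratio of −1.57 (−1.72 to −1.43), beside 9.02% of genes past 1.5-fold. Of the 6 genes, 3 passed 1.5-fold in this class with ADU-S100 (Il10 up, Tgfbr1 and Tgfbr2 down), beside 16.6% of the 10259 genes with enough UMIs. None passed it with anti-LTβR, where 6.26% of genes did, or with the combination, where 6.47% did. By median-of-ratios scaling the median gene of this class stood at −0.22 on the log2 scale in the ADU-S100 library, and relative to it the Il10 ratio was 2.0.

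The ADU-S100 difference in Il10 was present in each of the 5 macrophage and monocyte subsets given here. A further named subset is not reported. In C1q high macrophages, which express complement C1q genes, the levels were 24.1, 78.7, 28.1 and 21.3 CPM. In interferon-stimulated cells they were 9.94, 85, 9.2 and 3.19 CPM. Monocytes (9.92, 37.4, 16 and 18.3 CPM), MHC class II high cells (5.1, 27.1, 17.1 and 13.2 CPM) and Mmp12 and Gpnmb macrophages (10.8, 33.1, 25.7 and 13.5 CPM) had smaller values with ADU-S100, and the untreated and ADU-S100 intervals were separate in each of these subsets. C1q high cells numbered 1187 of 3561 cells of the class in the untreated library and 895 of 5234 with ADU-S100, where they held 30.4% of its Il10 UMIs, beside 61.8% in the untreated library. Neutrophil markers summed to 597 CPM in the class with ADU-S100 and 239 to 368 CPM elsewhere, while the neutrophils themselves held at most 8.75 CPM of Il10.

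**Figure D3:**
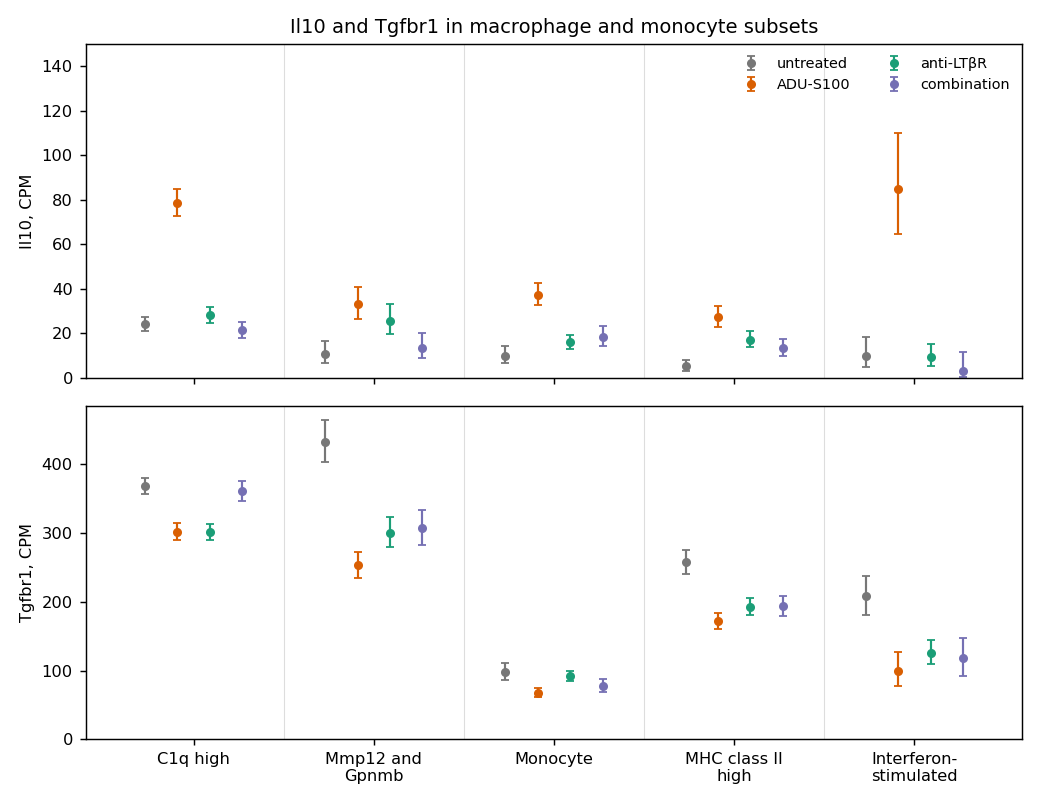
Il10 (top) and Tgfbr1 (bottom) levels in CPM in 5 macrophage and monocyte subsets and 4 libraries, with exact Poisson 95% intervals. Il10 is highest in the ADU-S100 library in all 5 subsets shown (27.1 to 85 CPM), and Tgfbr1 is lower with ADU-S100 than in the untreated library in these 5. A further named subset is not shown.

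In plasma cells, Il10 rose against untreated by log2 ratios of 1.87 (1.5–2.27) with ADU-S100, 0.97 (0.63–1.34) with anti-LTβR and 0.93 (0.59–1.30) with the combination, from 76, 254, 596 and 669 UMIs in 104, 62, 396 and 823 cells. Of genes with enough UMIs in plasma cells, 17.2, 7.9 and 7.17% passed 1.5-fold in these comparisons. The differences depended on cell depth. Among plasma cells of under 5000 UMIs the Il10 levels were 265 CPM (181–374), 233 CPM (116–417), 289 CPM (226–364) and 276 CPM (238–317), which overlap. Among those of at least 5000 UMIs they were 101 CPM (73.7–136), 531 CPM (467–602), 267 CPM (245–291) and 257 CPM (234–281), so the deep untreated plasma cells (43 cells, 44 UMIs) were the low group and the deep ADU-S100 plasma cells (39 cells, 243 UMIs) the high one. With every cell thinned to 1000 UMIs, the log2 ratios were −0.02, 0.01 and −0.02, and the rises are not present on that scale. Thinning drew from all UMIs of a cell, of which 39.8 to 46.4% were immunoglobulin UMIs in plasma cells, so few Il10 UMIs were left. As means of per-cell shares, the ADU-S100 and combination ratios were smaller but stayed positive. Macrophage markers summed to 4205 to 5334 CPM in plasma cells and 18447 to 22837 CPM in macrophages and monocytes, whose Il10 level was at most 54.5 CPM.

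In the anti-LTβR and combination libraries, IgM plasma cells held more Il10 than IgG plasma cells. With anti-LTβR the levels were 802 CPM (711–902) in IgM and 168 CPM (148–190) in IgG cells, and with the combination 466 CPM (412–523) and 203 CPM (182–227). An Il10 UMI was found in 61% of IgM and 26.7% of IgG cells with anti-LTβR, and in 48.1% and 22.3% with the combination. In the ADU-S100 library, with 8 IgM and 32 IgG cells, the intervals overlapped (492 CPM, 364–650, and 458 CPM, 386–540). They also overlapped in the untreated library (269 CPM, 139–471, and 129 CPM, 94.5–171), which had only 7 IgM cells with 12 Il10 UMIs. IgA cells, 7, 5, 29 and 51 in number, held 0, 527, 158 and 23.3 CPM, and the 29 ADU-S100 UMIs came from 1 cell. Plasma cells with no isotype call, 39, 17, 91 and 209 in number, held 203, 874, 215 and 303 CPM. Their intervals lay above those of IgG cells with ADU-S100 (602–1227) and the combination (237–382), and overlapped them in the other libraries.

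In regulatory T cells, the CD4 T cells that express the transcription factor gene Foxp3, Il10 rose 2.87-fold with anti-LTβR, a log2 ratio of 1.52 (1.15–1.91) from 95 UMIs in 230 cells and 162 UMIs in 171 cells. Of genes with enough UMIs in this class, 5.28% passed 1.5-fold. With the combination the log2 ratio was 1.48 (0.99–1.95) on 61 UMIs in 95 cells, below the limit of 200 UMIs, and with ADU-S100 it was −0.30 (−1.08 to 0.37) on 21 UMIs in 61 cells. The anti-LTβR value depended on how the cells were chosen. Among T cells with at least 1 Foxp3 UMI it was 0.39, and with cells named by their own marker UMIs it was 0.31, while the combination values were 1.42 and 1.25. Foxp3 UMIs were found in 71.7, 73.8, 62.6 and 51.6% of the regulatory T cells.

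Other T cells held little Il10, and it sat in different subsets by library. CD8 T cells held 26.1, 30.6, 3.59 and 0 CPM, from 50, 14, 4 and 0 UMIs. Other CD4 T cells held 2.17, 0, 81.2 and 109 CPM, from 1, 0, 64 and 31 UMIs. Gamma-delta T cells had no Il10 UMI in any library. In regulatory and other CD4 T cells as clustered, then, the anti-LTβR and combination libraries were the high ones.

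The receptor gene Il10ra was highest in myeloid cells and lowest in plasma cells. Neutrophils held 238, 241, 267 and 285 CPM, macrophages and monocytes 207, 188, 201 and 214 CPM, and plasma cells 28.8, 31.7, 19 and 25.9 CPM. Conventional dendritic cells, at 191 to 214 CPM, did not differ from macrophages and monocytes beyond their intervals except with ADU-S100. Plasma cells, one of the highest classes for Il10, thus held the lowest level of the gene for the ligand-binding chain.

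**Figure D4:**
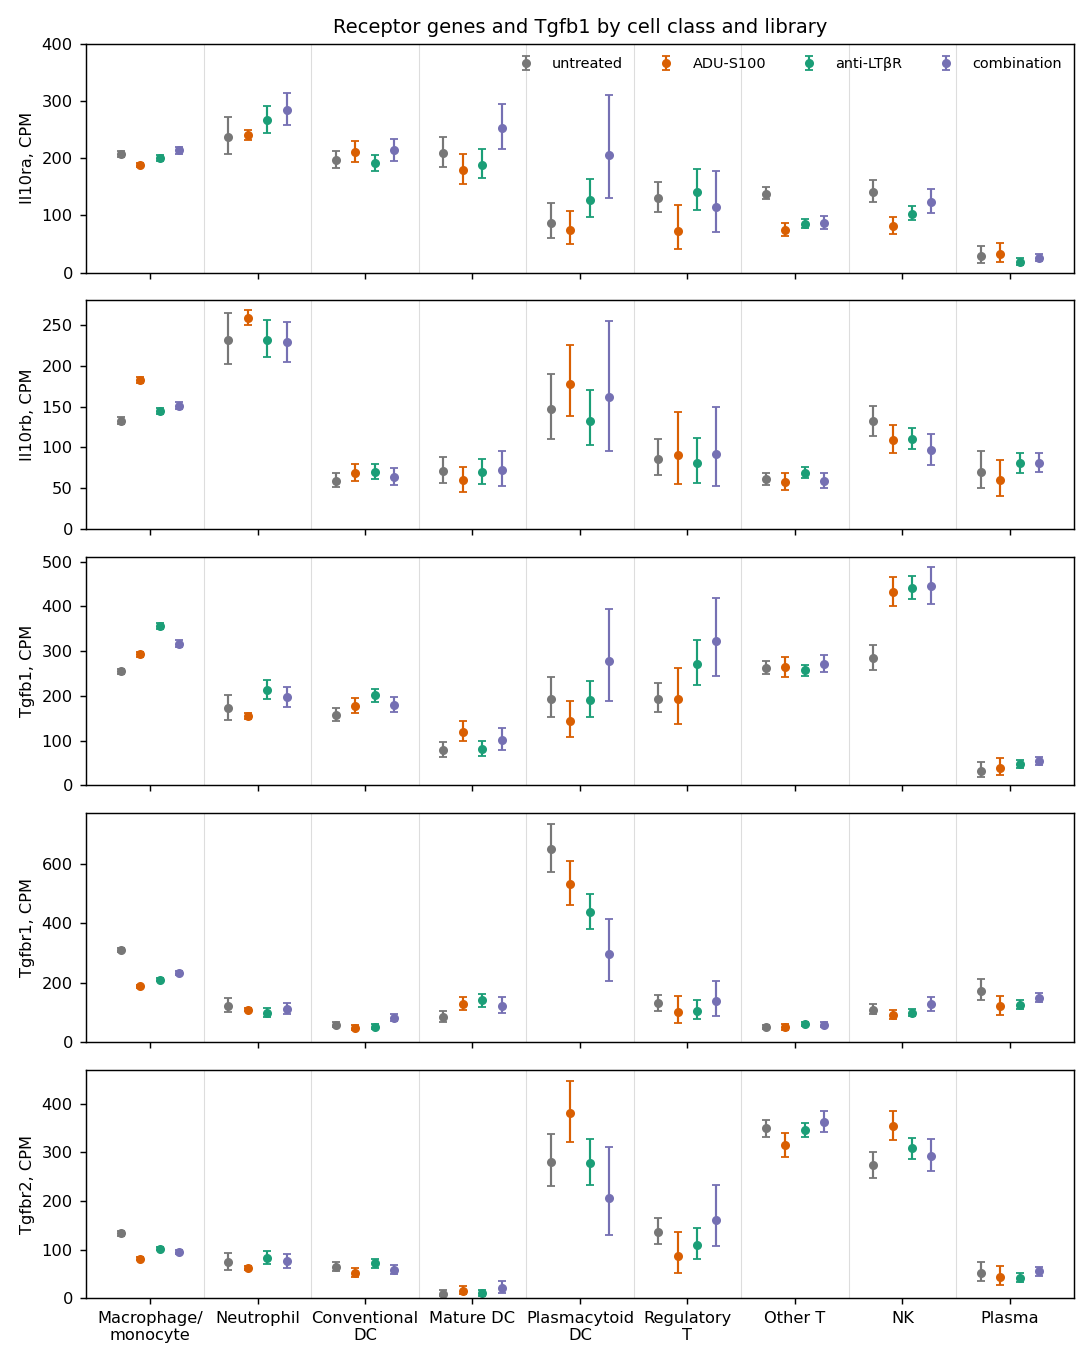
Levels in CPM of Il10ra, Il10rb, Tgfb1, Tgfbr1 and Tgfbr2 in 9 cell classes and 4 libraries, with exact Poisson 95% intervals. Il10ra is lowest in plasma cells (19 to 31.7 CPM), Tgfb1 in NK cells is lower in the untreated library (284 CPM) than in the treated ones (432 to 445 CPM), and Tgfbr2 is lowest in mature dendritic cells (9.28 to 21.5 CPM).

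Il10ra fell in T cells other than regulatory T cells in all 3 treated libraries. It was 138 CPM (128–149) in the untreated library and 74.4 CPM (63.4–86.8), 85.7 CPM (78.5–93.5) and 86.9 CPM (76.5–98.3) in the treated ones, log2 ratios of −0.89, −0.69 and −0.67. The share of genes past 1.5-fold in this class was 7.23, 6.69 and 5.41%. The 3 comparisons share the untreated library. Thinned to 1000 UMIs, the ratios were −0.72, −0.59 and −0.42, so the combination value then missed 1.5-fold. Among named subsets the ADU-S100 level was below the untreated one in CD8 T cells (136 and 212 CPM) and in other CD4 T cells (71.9 and 137 CPM), with separate intervals in CD8 T cells (104–174 and 192–234) but overlapping ones in other CD4 T cells (41.1–117 and 105–175), and gamma-delta T cells held at most 39.6 CPM. With anti-LTβR and the combination the intervals of both subsets overlapped the untreated ones, at 190 CPM (165–218) and 176 CPM (147–209) in CD8 T cells beside 212 CPM (192–234), and at 108 CPM (86.1–133) and 88.1 CPM (57–130) in other CD4 T cells beside 137 CPM (105–175). The T cells of no named subset held 82.9, 58.9, 54.1 and 52.1 CPM. The make-up of the class shifted with these values: CD8 T cells, the subset highest for Il10ra, were 342 of 1122, 79 of 510, 260 of 1783 and 306 of 1485 of its cells, and those of no named subset 559, 347, 1195 and 1014. The part of this shift in the class values was not tested. NK cells held 141, 81.2, 103 and 124 CPM, and Il10ra fell there with ADU-S100 (log2 ratio −0.79, −1.13 to −0.47, beside 4.12% of genes).

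Il10rb, the chain shared with other receptors, was highest in neutrophils at 232, 259, 232 and 229 CPM. Plasmacytoid dendritic cells held 147, 178, 133 and 162 CPM, and their intervals overlapped those of macrophages and monocytes. Macrophages and monocytes held 133 CPM (129–138), 183 CPM (179–187), 145 CPM (141–149) and 151 CPM (147–156). The ADU-S100 ratio was 0.46 (0.40–0.51) and missed 1.5-fold, and relative to the median gene it was 0.67 and passed it. In plasma cells Il10rb was 59.5 to 81.1 CPM, and in T cells other than regulatory T cells 57.4 to 68.8 CPM. In cells thinned to 1000 UMIs, transcripts of both chains of the IL-10 receptor were found in 2.26, 3.08, 2.37 and 2.78% of macrophages and monocytes and in 3.89, 4.32, 3.63 and 5.07% of neutrophils. Over all leukocytes the ADU-S100 Il10rb log2 ratio was 0.64, with 0.29 from class shares alone and 0.37 from levels alone.

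Among the classes Tgfb1 was highest in NK cells in every library. Their interval overlapped those of other T cells and of macrophages and monocytes in the untreated library, and that of regulatory T cells in the combination library. Tgfb1 rose in NK cells in all 3 treated libraries, from 284 CPM (258–313) to 432 CPM (400–466), 442 CPM (417–468) and 445 CPM (406–487), log2 ratios of 0.60, 0.63 and 0.65. Of genes with enough UMIs in NK cells, 4.12, 2.47 and 4.3% passed 1.5-fold. Leaving each cell to its own marker UMIs gave 0.50, 0.56 and 0.66, so the first and second values then missed it. T cells other than regulatory T cells held 263, 264, 257 and 272 CPM, which overlap. Their CD8 subset did not share this pattern and held 335 CPM (310–362), 429 CPM (371–493), 535 CPM (493–580) and 452 CPM (405–503), the untreated library being the lowest. Regulatory T cells held 194, 192, 272 and 322 CPM, with a rise in the combination library (log2 ratio 0.74, 0.26 to 1.19, beside 4.18% of genes) that was 0.39 among T cells with a Foxp3 UMI.

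In macrophages and monocytes Tgfb1 was 255 CPM (249–261), 293 CPM (288–299), 356 CPM (350–362) and 317 CPM (310–324), and no treated library passed 1.5-fold. The subsets of this class spread more widely than the libraries did. Monocytes held 465, 565, 623 and 538 CPM, whereas C1q high macrophages held 206, 190, 220 and 234 CPM and Mmp12 and Gpnmb macrophages 186, 184, 191 and 197 CPM. Mature dendritic cells were low at 79.3, 120, 81.5 and 101 CPM, a rise with ADU-S100 (log2 ratio 0.60, beside 14.1% of genes, and 0.52 with no cells removed as doublets), and plasma cells lowest at 32.4 to 54.5 CPM. In mature dendritic cells macrophage markers summed to 517, 1507, 548 and 2930 CPM and neutrophil markers to 12.7, 821, 208 and 55.3 CPM, and their part in the rise was not tested. Macrophages and monocytes still held 65.2% to 70.7% of all leukocyte Tgfb1 UMIs.

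Tgfbr1 fell in macrophages and monocytes with ADU-S100, from 310 CPM (303–317) to 187 CPM (183–191), a log2 ratio of −0.73 (−0.77 to −0.68). It was 209 CPM (205–214) with anti-LTβR and 232 CPM (226–238) with the combination, ratios of −0.57 and −0.42. Tgfbr2 moved the same way, from 134 CPM (129–138) to 81.6 CPM (78.9–84.4), 102 CPM (98.5–105) and 94.7 CPM (90.9–98.5), ratios of −0.71 (−0.78 to −0.64), −0.39 and −0.50. Relative to the median gene of the class the ADU-S100 ratios were −0.51 and −0.50, which miss 1.5-fold. Both receptor genes thus kept their direction but not their place past the limit under that scaling.

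The ADU-S100 library was below the untreated library for Tgfbr1 in these 5 subsets, with separate intervals. C1q high macrophages held 368, 302, 301 and 361 CPM, so that the combination library was level with the untreated one there. Mmp12 and Gpnmb macrophages held 433, 253, 300 and 307 CPM, and monocytes 98.4, 67.7, 92.1 and 77.9 CPM. Tgfbr2 was highest in C1q high macrophages at 190, 157, 201 and 153 CPM and lowest in monocytes or interferon-stimulated cells in each library, among these subsets. In cells thinned to 1000 UMIs, both receptor transcripts were found together in 3.66% (3.05–4.35) of untreated macrophages and monocytes and in 1.37% (1.07–1.73), 1.93% (1.6–2.3) and 2.08% (1.74–2.46) of those in the treated libraries. The products of the separate shares were 2.84, 1.12, 1.65 and 1.59%.

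Over the macrophage and monocyte class, Tgfbr1 and Tgfbr2 were lower in each treated library, past 1.5-fold only with ADU-S100, while Tgfb1 was not lower. Relative to the median gene that limit was missed, and in C1q high macrophages Tgfbr2 was not lower with anti-LTβR. The 250 bases before the start sites of these 3 genes are given here from RefSeq (GRCm38.p6) for comparison. Of the 6 genes, these 3 had an entry in the promoter table used, and Tgfbr1 had a further entry at an internal start that is not shown. Capitals mark the letters CCAAT and GGGCGG, the CCAAT box and the GC box, read on both strands (ATTGG and CCGCCC).
Tgfbr1, chr4:47352972-47353221, plus strand: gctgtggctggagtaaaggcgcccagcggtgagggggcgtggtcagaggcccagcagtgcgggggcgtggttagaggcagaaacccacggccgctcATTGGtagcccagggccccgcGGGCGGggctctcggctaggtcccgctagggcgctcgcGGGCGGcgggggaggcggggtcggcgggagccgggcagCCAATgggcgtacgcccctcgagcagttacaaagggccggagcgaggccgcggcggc
Tgfbr2, chr9:116175364-116175613, minus strand: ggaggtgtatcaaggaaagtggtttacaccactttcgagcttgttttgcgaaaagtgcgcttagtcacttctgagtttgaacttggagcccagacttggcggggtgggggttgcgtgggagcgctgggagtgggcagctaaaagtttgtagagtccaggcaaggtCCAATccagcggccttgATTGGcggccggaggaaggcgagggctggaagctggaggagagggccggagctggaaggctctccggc
Tgfb1, chr7:25686752-25687001, plus strand: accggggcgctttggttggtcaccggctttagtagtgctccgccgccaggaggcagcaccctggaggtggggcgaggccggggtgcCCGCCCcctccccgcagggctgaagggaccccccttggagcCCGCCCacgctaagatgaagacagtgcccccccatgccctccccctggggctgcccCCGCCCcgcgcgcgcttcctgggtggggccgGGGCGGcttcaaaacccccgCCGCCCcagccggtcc

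The Tgfbr1 and Tgfbr2 windows each hold the CCAAT letters on both strands, at 57 and 154 bases and at 85 and 68 bases before the start. The Tgfb1 window holds none of them. GGGCGG or its reverse occurs 5 times in the Tgfb1 window and also in that of Tgfbr1, at 133 and 95 bases before the start, but not in that of Tgfbr2. Among all 32851 promoter entries, 33.8% hold CCAAT and 32.7% hold GGGCGG in the same window. A match describes the letters and says nothing of a factor bound there.

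Among the named classes other than macrophages and monocytes, Tgfbr1 was highest in plasmacytoid dendritic cells, type I interferon-producing cells, at 651 CPM (573–736), 533 CPM (462–611), 437 CPM (381–500) and 296 CPM. This class held only 77, 75, 118 and 39 cells, and the unnamed cells held 621, 302, 249 and 326 CPM of Tgfbr1. The combination value was a fall (log2 ratio −1.12, −1.71 to −0.61, beside 21.9% of the 421 genes with enough UMIs) and was −0.33 when no cells were removed as doublets. Mature dendritic cells, which migrate and present antigen, went the other way: Tgfbr1 rose there from 84.4 CPM (68.7–103) to 127 CPM (107–151) with ADU-S100 and 140 CPM (119–163) with anti-LTβR, log2 ratios of 0.59 and 0.73 beside 14.1 and 3.87% of genes, with 121 CPM in the combination library. The ADU-S100 value was 0.44 without the cell of most Tgfbr1 UMIs in each library, and with no cells removed as doublets the values were 0.48 and 0.43, so both rises rest on those choices. The macrophage markers (517, 1507, 548 and 2930 CPM) and neutrophil markers (12.7, 821, 208 and 55.3 CPM) of the class were higher with ADU-S100 than in the untreated library, and their part in the rise was not tested. Plasma cells held 173, 121, 126 and 149 CPM.

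Tgfbr2 was highest in lymphocytes and plasmacytoid dendritic cells (280, 380, 277 and 206 CPM). T cells other than regulatory T cells held 349, 314, 346 and 362 CPM and NK cells 273, 354, 308 and 293 CPM, and none of these differences passed 1.5-fold. B cells held 260 CPM (219–307) with anti-LTβR and 370 CPM (316–431) with the combination. Regulatory T cells were below the other T cells in every library, at 137, 86.5, 110 and 161 CPM, with separate intervals. Among T cell subsets other CD4 T cells held 461, 386, 481 and 437 CPM and CD8 T cells 302, 195, 261 and 254 CPM. In CD8 T cells the ADU-S100 interval (156–240) lay below the untreated one (278–327), while those of the other treated libraries overlapped the untreated one. Mature dendritic cells held only 9.28, 15.6, 10.2 and 21.5 CPM, the lowest class in each library.

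**Figure D5:**
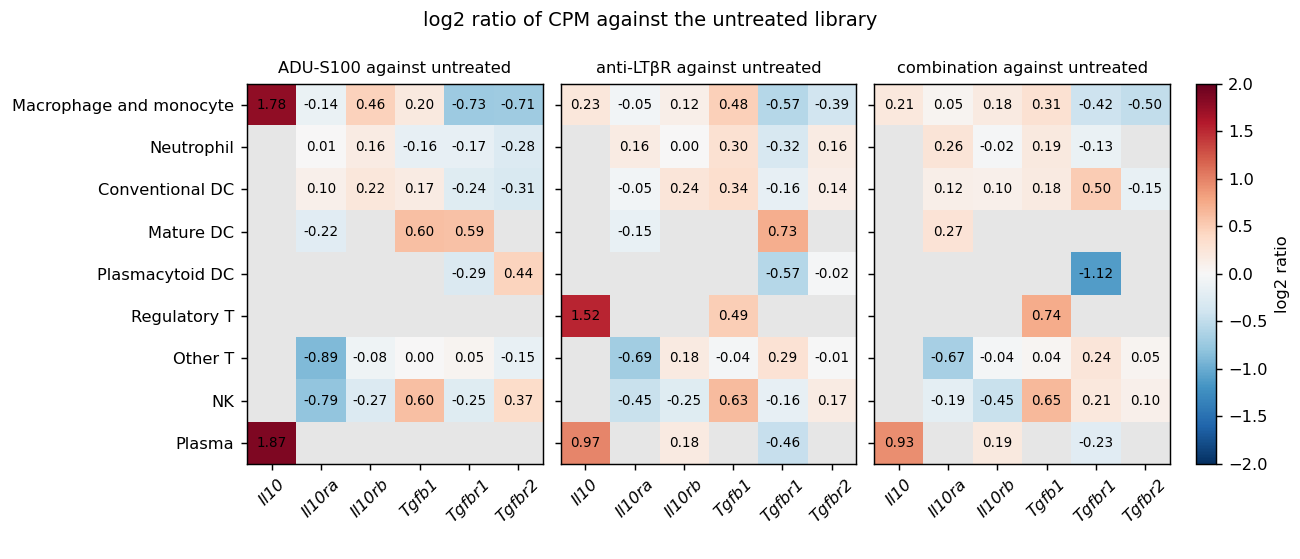
Log2 ratios of CPM against the untreated library for the 6 genes (columns) in 9 cell classes (rows) and 3 treated libraries (panels). Gray cells had fewer than 200 UMIs over both libraries. Il10 ratios reach 1.87 in plasma cells and 1.78 in macrophages and monocytes with ADU-S100, and the Il10ra ratios of other T cells lie between −0.89 and −0.67.

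Over all leukocytes, 4 of the 6 genes passed 1.5-fold with ADU-S100 (Il10 and Il10rb up, Tgfbr1 and Tgfbr2 down), beside 37% of 11734 genes. The median of the 6 was 0.04 and that of all genes −0.38. Relative to the median gene, at −0.39 by median-of-ratios scaling, the Tgfbr1 and Tgfbr2 ratios with ADU-S100 were −0.28 and −0.36 and missed 1.5-fold. With anti-LTβR only Tgfbr1 passed it (6.43% of genes), and its ratio of −0.61 became −0.57 under that scaling. Il10, from 17.5 to 26.2 CPM, stood at the limit there without passing it. With the combination only Il10 passed it (8.67%), and its ratio of 0.81 was 0.39 in thinned cells. For Tgfbr1, levels within classes accounted for log2 ratios of −0.70, −0.62 and −0.45, beside 0.01, 0.02 and 0.14 for class shares. These levels take in shifts among the subsets of a class, such as the C1q high macrophages, and that part was not tested. For Tgfbr2 in the ADU-S100 library the values were −0.44 for levels and −0.24 for shares, where Tgfbr2-rich T and NK cells were a smaller part of the cells.

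Genes of the pathways around these 6 were read from lists of IL-10 targets, IL-10 regulators, TGF-β activators, co-receptors, transducers and targets. In macrophages and monocytes, 6 of 19 tested IL-10 signaling and target genes rose with ADU-S100 and 2 fell, with a median log2 ratio of 0.11 beside −0.20 over all genes, of which 5.28% rose and 11.3% fell. Il1rn, the interleukin-1 receptor antagonist, went from 371 to 950 CPM (log2 ratio 1.36). Tnfaip3, an inhibitor of NF-κB signaling, went from 272 to 635 CPM (1.23), and Ddit4, an inhibitor of mTORC1, from 104 to 242 CPM (1.22). Cd163, a hemoglobin scavenger receptor, fell from 4.25 to 2.71 CPM with ADU-S100 and rose to 13.7 CPM with anti-LTβR, a log2 ratio of 1.69. Of these targets, 6 rose with anti-LTβR (3.6% of all genes rose and 2.66% fell) and 5 with the combination (3.58% and 2.89%), with none falling.

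Of 12 IL-10 regulators in this class, 4 rose with ADU-S100 (Prdm1, Bhlhe40, Nfkb1 and Nfkbiz), 3 with anti-LTβR (Bhlhe40, Irf4 and Ahr) and 4 with the combination (Bhlhe40, Irf4, Nfkb1 and Ahr), beside 5.28, 3.6 and 3.58% of all genes. Maf, which encodes a transcription factor known to activate Il10, fell with the combination from 199 to 109 CPM (log2 ratio −0.86). Bhlhe40, which encodes a repressor of Il10, went from 202 to 367 CPM (0.86). Bhlhe40 also rose in the ADU-S100 library, to 347 CPM, whereas Maf was 136 CPM there (−0.55).

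Among TGF-β genes in macrophages and monocytes, Itgae, the integrin αE gene, fell in all 3 treated libraries, from 8.01 CPM to 2.09, 2.08 and 3.98 CPM. The fractalkine receptor gene Cx3cr1 fell with ADU-S100 from 236 to 98.1 CPM (log2 ratio −1.27). The co-receptor gene Eng (endoglin) fell with ADU-S100 from 31.9 to 17.9 CPM and with anti-LTβR to 21.2 CPM, and the ligand gene Tgfb3 fell with anti-LTβR from 64.9 to 34.4 CPM. Of 6 tested genes for ligands and activation, 1 rose (Thbs1) and 2 fell (Ltbp3 and Nrros) with ADU-S100, and none passed 1.5-fold with the combination. Of 4 tested co-receptors, 1 rose with ADU-S100 (Cd109) and 1 fell (Eng). Of 11 tested TGF-β targets, 5 rose and 2 fell with ADU-S100, and 2 rose (Cdkn1a and Id1) and 1 fell (Itgae) with the combination. The lists of this paragraph stand beside 5.28% of all genes rising and 11.3% falling with ADU-S100, 3.6 and 2.66% with anti-LTβR, and 3.58 and 2.89% with the combination. Of the 13 other IL-10 family and IL-35 genes, at most 3 had enough UMIs, and 1 rose, Il20rb with anti-LTβR. Of 15 transducers and inhibitors, 1 rose with ADU-S100 (Tgif1), 1 with anti-LTβR (Zfyve9) and none with the combination, and none fell, so the SMAD genes of this class stayed within 1.5-fold.

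In all T cells, where 6.19, 6.25 and 5.3% of genes passed 1.5-fold, Itgb8, whose integrin activates latent TGF-β, fell in all 3 treated libraries, from 176 CPM to 78.4, 79.9 and 59.7 CPM (log2 ratios −1.16, −1.14 and −1.55). Itgav, which encodes its partner chain, fell with anti-LTβR from 1211 to 663 CPM (−0.87) and with the combination to 792 CPM (−0.61). Ctla4, an inhibitory receptor gene high in regulatory T cells, fell from 1340 CPM to 880, 719 and 747 CPM. Regulatory T cells were 3.12, 0.461, 1.31 and 0.66% of leukocytes while other T cells were 15.2, 3.86, 13.7 and 10.3%, and the part of this shift in these values was not tested. Socs3, a feedback inhibitor of cytokine signaling, rose in all 3, from 47.1 CPM to 98.5, 91.5 and 110 CPM. Of the TGF-β targets with enough UMIs in T cells, 1 of 9 rose and 2 fell with ADU-S100, none of 11 rose and 4 fell with anti-LTβR, and 1 of 11 rose and 4 fell with the combination, beside 2.51, 3.15 and 2.43% of all genes rising and 3.67, 3.11 and 2.86% falling. Of 14 IL-10 signaling and target genes, 2, 2 and 3 rose and 0, 1 and 1 fell. Smad3, a TGF-β signal transducer, rose with anti-LTβR from 96 to 156 CPM (0.70).

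Across the 37 sums of 1 class in 1 library with at least 50 cells, the genes most like each of the 6 were found by Pearson r of log2(CPM + 1), as a description over sums that share libraries and depth. Of 9566 genes searched, Il10 was most like Prdm1, which encodes the Blimp-1 factor of plasma cells and effector T cells (r = 0.861), followed by Rapgef5 (0.819), Ube2j1 (0.787), Jund (0.786) and Odc1 (0.785). Il10ra was most like the actin-bundling gene Lcp1 (0.935), Il10rb like Grina (0.897), Tgfb1 like Usp25 (0.882), Tgfbr1 like Ldlrad3 (0.809) and Tgfbr2 like the PI3-kinase δ gene Pik3cd (0.933). Among the 6 themselves the highest r was 0.646, between Tgfb1 and Tgfbr2, and the lowest −0.537, between Il10 and Il10ra.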

How the data were processed

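The deposited matrices hold UMI counts per gene and cell, made by the authors from 5′ single-cell libraries and aligned to mm10, with no normalization. The file headers name Cell Ranger 8.0.1, whereas the submitters' processing notes name 7.1.0, and the labels and the methods name different 5′ kits. Deposited totals ran from 52109958 to 85855398 UMIs per library. Cells were kept with the study's limits (300 to 5000 genes, at most 6% mitochondrial UMIs). The automatic Scrublet threshold marked at most 1 cell per library, so the highest-scoring 305, 949, 857 and 1066 cells were removed. Leiden clustering (scanpy 1.11.5, leidenalg 0.10.2, resolution 1) gave 32 clusters, named by fixed marker lists. For each cluster, markers were counted that lay at least 2-fold above the median cluster and in at least 10% of its cells, and the list with the greatest fraction of such markers, 3 or more, gave the name. The thresholds were set after seeing the data, the authors' own cell names were not used, so values can depart from the study's through the rebuilt names. T cells and macrophages were clustered again by the same rule.

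UMIs were summed per class and library, without immunoglobulin genes in the total. CPM carry exact Poisson intervals, shares exact Clopper-Pearson intervals, and log2 ratios (0.5 UMI added) exact binomial intervals, all at 95%. UMIs of cells pooled in 1 library are not replicates, and no p-value is given. The ratio step was tested on simulated data. Plasma cell isotype was the heavy chain with most constant-region UMIs, in cells with at least 10. Gene positions are from GENCODE M21. Named pathway genes are the 4 largest rises and falls past 1.5-fold per comparison in macrophages and in T cells, with further list genes named only as counted. The 6 genes and all lists were chosen with earlier results of these data known. A few items are not reported here.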

Additional observations from a re-analysis of the deposited data

Results flagged for a closer look

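Tgfbr1 moved in opposite directions in 2 cell classes of the same libraries. With ADU-S100 its log2 ratio against untreated was 0.59 in mature dendritic cells and −0.73 in macrophages and monocytes, both past 1.5-fold. The first value was 0.44 without the cell of most Tgfbr1 UMIs in each library and 0.48 with no cells removed as doublets, and the second was −0.51 with median-of-ratios scaling, so each of them missed 1.5-fold there. The difference between the classes was not tested, since each group had 1 library.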

How the results depend on the processing

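The alternatives changed the doublet removal, the naming of cells, the clustering resolution, the depth, the scaling and the averaging, 1 choice at a time. The use of all deposited cells was an exception, since it set aside the cell limits and the doublet removal together. The cause of each change below was not tested unless the alternative itself shows it. The Il10 log2 ratio over all leukocytes with ADU-S100 was 0.88 with cells thinned to 1000 UMIs, 1.77 with median-of-ratios scaling, 1.02 as a mean of per-cell shares and 1.52 over all deposited cells. With anti-LTβR it was 0.27 thinned and 0.78 over all deposited cells, and with the combination 0.39 thinned. In macrophages and monocytes the Il10 ratio with ADU-S100 was 2.0 with median-of-ratios scaling and 2.02 per cell. With anti-LTβR it was 0.03 with cells named without clusters and 0.00 thinned, with the combination −0.03 with no doublets removed and 0.54 per cell, and for the combination against anti-LTβR 0.21 per cell.

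In plasma cells the 3 Il10 ratios were 2.54, 1.94 and 1.97 with cells named without clusters, and −0.02, 0.01 and −0.02 thinned. In cells of under 5000 UMIs, a split chosen after seeing the data, they were −0.14, 0.11 and 0.04, and in deeper cells 2.38, 1.38 and 1.33. Per cell they were 1.05 with ADU-S100 and 0.58 with the combination. The combination against ADU-S100 ratio was 0.00 thinned. In regulatory T cells the anti-LTβR ratio was 0.31 with cells named without clusters and 0.39 with a Foxp3 UMI required. In plasma cells named without clusters, the Tgfb1 ratio of the combination turned to −0.13, and in thinned conventional dendritic cells the Tgfbr1 ratio of the combination against ADU-S100 turned to −0.03.

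The count of the 6 genes past 1.5-fold in macrophages and monocytes went from 0 to 1 with anti-LTβR in cells named without clusters, per cell, with no doublets removed, with the resolution doubled and thinned, and with the combination per cell and thinned. In all T cells it went from 1 to 0 with anti-LTβR in cells named without clusters, with no doublets removed and with the resolution doubled, and with the combination per cell and thinned. With a limit of 1 UMI in place of 200, more genes were past 1.5-fold, in macrophages and monocytes 9749, 7454 and 7515 in place of 1701, 641 and 643, and in all T cells 5700, 6847 and 7086 in place of 369, 457 and 331. Depth limits most of all the combination library, whose cells were shallowest, and genes of under 200 UMIs were not called. No paired analysis was possible because each group had 1 library.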
